A study of Mus musculus with 24 samples.

Results

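Solute carriers are membrane proteins that move amino acids, sugars, metals, nucleosides, ions and vitamins across the plasma membrane or the membranes of organelles. The 139 genes described here were chosen by level: of 369 genes whose symbol begins with Slc and a digit, among 23420 genes in the tables, 177 stayed below 5 CPM (the read count of a gene scaled to library depth) in every group mean and were left out. A further 47 mitochondrial carriers of the Slc25a family and 6 genes (Slc7a2, Slc40a1, Slc11a1, Slc11a2, Slc2a1 and Slc16a3) were also left out. The 139 belong to 41 families, and 113 of them reach 5 CPM in all 12 groups, the other 26 in some groups only. By symbol 135 are carriers. The other 4 only share the prefix: Slc9a3r1 and Slc9a3r2 are scaffold proteins of sodium/proton exchangers, and Slc4a1ap and Slc7a6os are no transporters. Just inside the threshold lie Slc15a2, Slc6a12 and Slc22a18, with highest group means of 6.15, 6.36 and 7.94 CPM, and just outside lie Slc18a1, Slc7a4 and Slc6a9, with 4.79, 4.62 and 4.43 CPM. Since group means chose the members, a gene that is high in only 1 condition could enter through that condition. Counts of members called are therefore descriptions and are set beside the same counts over all genes. Overlaps of calls between comparisons are given for members only, so they do not set the carriers apart from other genes.

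RNA was sequenced from bone marrow-derived macrophages of male C57BL/6 mice aged 3 months, in 24 samples that form 12 groups of 2, and all cells had been grown from marrow for 6 days with M-CSF, the growth factor of this lineage. In the antagonist experiment 4 groups were treated for 24 h. They received a DMSO and ethanol vehicle, interleukin-4 (IL-4, labelled as 20 ng per µl) with vehicle, GW9662, or IL-4 with GW9662. GW9662 blocks the ligand pocket of the nuclear receptor PPARγ, and the labels give no dose for it. The memory experiment has 4 groups of wild type and 4 labelled as Pparg knockout. Cells were either never exposed to IL-4 or had IL-4 for 24 h followed by a washout of 24 h in differentiation medium, and both kinds were read without further IL-4 or after 3 h of IL-4. The 4 states are called never exposed, first exposure, washed out and second exposure below. The labels record no mock treatment or added culture time for never exposed and first-exposed cells. Time in culture may therefore differ from that of the pretreated cells, and it cannot be told apart from the IL-4 pretreatment. The labels do not give the allele, the deleted part of Pparg or what removed it, nor do they say if a group's samples are different mice, so p-values measure only the spread between these samples, which may be technical.

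IL-4 acts on macrophages through its receptor and the transcription factor STAT6, and it drives the alternatively activated state. Such cells are known for arginine and lipid use, for uptake of debris and for handling of iron and haem. Many carriers work with partners: the light chains Slc7a5, Slc7a6, Slc7a7, Slc7a8 and Slc7a11 need the heavy chain Slc3a2 at the cell surface. Others sit in lysosomes and release what the cell has digested, among them Slc36a1, Slc38a9, Slc15a3, Slc15a4, Slc29a3 and Slc48a1.

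Each deposited column is the authors' mean of a pair of samples, and the reads of both libraries could be recovered from it. Values below are given for the deeper and then the shallower library of a group. The antagonist libraries are deeper, at about 16573000 to 28674000 reads, than those of the memory design, at about 5699000 to 16431000 reads, so that 1 read is worth 0.0349 to 0.0603 and 0.0609 to 0.175 CPM. In the group means, 4 of 7 macrophage markers lay at 694 CPM or above (Csf1r 3718 to 8360 CPM), Fcgr1 at 80.6 to 530.3 CPM and Mertk at 29.3 to 123 CPM. The lysozyme gene Lyz2 stood at 6409 to 23273 CPM in the 24 h groups and at 21966 to 30727 CPM in wild-type memory groups, but at 14.5 to 41.8 CPM in the labelled knockout ones. Lymphocyte markers summed to at most 0.609 CPM and 3 erythroid markers were at 0. The neutrophil markers summed to 154 to 289 CPM in the 24 h groups and to 19.5 to 89.2 CPM in the memory groups. Both libraries of the wild-type second exposure stand apart: 6 fibroblast markers summed to 1083 CPM in the deeper and 37.5 CPM in the shallower one, against 0.0698 to 9.83 CPM in the other 22. The libraries also fall into 2 kinds by the levels of Ubb and Gapdh, and the labels do not say what sets the kinds apart. In 14 libraries of the low kind Ubb had 2.81 to 5.62 CPM and in the other 10, of the high kind, it had 289 to 468 CPM. All 8 labelled knockout libraries are of the low kind, and 7 of the 8 wild-type memory libraries are of the high kind. Pparg itself stood at 18.97 to 34.8 CPM in the wild-type memory libraries and at 19.9 to 45.5 CPM in the labelled knockout ones, so the gene's total level does not separate the genotypes and does not check the labels, whereas Lyz2 separates them.

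Divided by exonic length, the haem transporter Slc48a1 had the highest level in both experiments, a mean of 344 CPM per kb over the antagonist groups and 243 CPM per kb over the memory groups. Next in the antagonist groups came Slc15a3, a lysosomal histidine and peptide transporter (232 CPM per kb), the taurine transporter Slc6a6 (191), Slc3a2 (140) and Slc43a2, a facilitative carrier of neutral amino acids (123). Below these followed the zinc carriers Slc39a7 (86.6 CPM per kb) and Slc39a1 (80.6), the scaffold Slc9a3r1 (82.8), the phosphate-linked sugar phosphate exchanger Slc37a2 (69.0) and Slc24a6 (66.7). Slc24a6 is the older symbol of Slc8b1, the mitochondrial sodium/calcium exchanger. In the memory groups Slc6a6 (186 CPM per kb), Slc3a2 (110.5), Slc15a3 (96.2) and Slc9a3r1 (91.1) followed Slc48a1. Slc43a2 (89.9 CPM per kb), the endosomal sodium/proton exchanger Slc9a9 (85.9), Slc37a2 (72.4), Slc39a7 (70.7) and the nucleoside carrier Slc29a1 (68.4) completed the 10 highest. Across the 8 memory groups the highest group mean was a median of 1.89 times the lowest over the 139 members. Without the wild-type second exposure, whose libraries stand apart, it was 1.76 times over the other 7. Slc35a1, which carries CMP-sialic acid, varied least at 1.10 times. Among the 133 members whose lowest group mean is at least 1 CPM, Slc7a11 (32.3 times, and 24.2 over the 7 groups), Slc30a4 (22.2) and Slc7a5 (20.7) varied most, the last 2 with the same ratio over the 7 groups.

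The first question of the memory experiment was what 3 h of IL-4 does to cells that had not met it. In wild-type cells zinc exporter Slc30a4, the amino acid carriers Slc7a5, Slc7a1, Slc7a6 and Slc1a5, carnitine carrier Slc22a5 and sugar phosphate exchanger Slc37a2 rose, while Slc7a7 fell. Of carriers found in lysosomes Slc46a3, Slc36a1 and Slc15a4 fell, whereas Slc15a3 and Slc2a6 rose and Slc38a9 gave no call. Of 136 members tested 49 were called higher and 42 lower (66.9%), where a call is an adjusted p under 0.05 in limma. Over all 11345 genes tested 49.8% were called, 24.7% higher and 25.1% lower, and 52% of the genes that reach 5 CPM in some group. In the labelled knockout 44 of 135 members were called higher and 43 lower (64.4%), against 44.2% of 11208 genes (21.4% higher, 22.8% lower) and 45.9% of those that reach 5 CPM. Members have a median level of 44.4 CPM in the memory table and the genes that reach 5 CPM one of 37.5. The median log2 difference of members was 0.01 in wild type, beside -0.01 over all genes tested, and 17 members changed by over 2-fold upward and 7 downward. In bulk RNA of this kind, fewer cells of a type and less RNA per cell cannot be told apart.

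Classes of carriers here and below follow the family number, so a class can hold carriers of other substrates. Among metal carriers, 7 of 22 rose and 4 fell in wild type. Slc30a4, which moves zinc out of the cytosol into vesicles, stood at 15.2 and 17.7 CPM in the never exposed wild-type libraries and at 275 and 287 CPM after the first exposure. The labelled knockout libraries went from 14.9 and 13.9 CPM to 283 and 302 CPM. All 4 exposed libraries lie far above all 4 unexposed ones, and this was the largest change of any member (wild type log2 difference 4.02, SE 0.09, adjusted p = 4.5e-15; labelled knockout log2 difference 4.26, SE 0.09, adjusted p = 3.1e-15). Slc39a6, a zinc importer, went from 64.4 and 58.8 CPM to 249.8 and 243 CPM in wild type (log2 difference 1.98, SE 0.07, adjusted p = 2.4e-12) and from 62.3 and 61.9 CPM to 267 and 269 CPM in the labelled knockout. Smaller rises were measured for Slc39a7, which releases zinc from the endoplasmic reticulum (0.69), for Slc30a1, the plasma membrane zinc exporter (0.69), and for the copper carrier Slc31a2 (0.74), all as log2 differences in wild type. The copper importer Slc31a1 fell from 201 and 192 CPM to 97.2 and 98.6 CPM (log2 difference -0.9998, SE 0.06, adjusted p = 2.2e-09). Zinc importers Slc39a4 and Slc39a14 also fell, by 0.53 and 0.43 on the log2 scale, but neither call held without the deeper first-exposed library (adjusted p up to 0.18 and 0.090 over all omissions of 1 library). The zinc-responsive metallothioneins Mt1 and Mt2 and the sensor Mtf1 gave no call in wild type, and Mt2 was higher in the labelled knockout by 0.37 on the log2 scale (adjusted p = 0.037).

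Amino acid carriers went both ways: in wild type 7 of 23 rose and 10 fell, and Slc7a6os, which shares the prefix only, rose. Slc7a5, the exchanger that brings leucine and other large neutral amino acids in, stood at 11.2 and 8.61 CPM before and 79.4 and 79.8 CPM after the first exposure (log2 difference 2.90, SE 0.15, adjusted p = 1.1e-10). The labelled knockout went from 10.04 and 10.5 CPM to 92.3 and 81.2 CPM, again with no overlap between groups. Its heavy chain Slc3a2 was abundant before IL-4 and rose less, from 254 and 273 CPM to 374 and 372 CPM in wild type (log2 difference 0.50, SE 0.06, adjusted p = 3.6e-06). Slc7a1, the main importer of arginine and lysine, rose from 37.5 and 31.8 CPM to 107 and 112 CPM (log2 difference 1.64, SE 0.12, adjusted p = 9.0e-09). Slc7a6, which exchanges cationic for neutral amino acids, rose from 19.4 and 21.5 CPM to 59.1 and 58.2 CPM (log2 difference 1.48, SE 0.10, adjusted p = 4.1e-09), whereas its relative Slc7a7 fell from 35.5 and 40.3 CPM to 21.6 and 20.8 CPM (log2 difference -0.81, SE 0.10, adjusted p = 6.9e-06). The glutamine and serine exchanger Slc1a5 rose from 48.7 and 49.5 CPM to 85.8 and 90.3 CPM (log2 difference 0.83, SE 0.08, adjusted p = 2.1e-07) and the exchanger Slc7a8 by 0.40 on the log2 scale. Slc1a4, a carrier of alanine and serine, lay below 5 CPM before IL-4, at 1.46 and 0.773 CPM, and at 4.46 and 6.07 CPM after it. Where a member lies below 5 CPM in one of the groups compared, as here, the rule chose it through the other group, so its values and log2 difference (1.57 for Slc1a4) are given without a test, here and below.

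Several abundant amino acid carriers fell. Slc43a2 went from 737 and 849.6 CPM to 398 and 366 CPM (log2 difference -1.05, SE 0.07, adjusted p = 6.4e-09) and the proton-coupled lysosomal carrier Slc36a1 from 86.4 and 94.3 CPM to 43.6 and 45.9 CPM (log2 difference -0.997, SE 0.08, adjusted p = 1.8e-08). Labelled knockout libraries gave the same order: Slc43a2 went from 847 and 873 CPM to 364 and 367 CPM and Slc36a1 from 98.2 and 97.7 CPM to 48.2 and 41.8 CPM. Both are separated without overlap in each genotype. The sodium-coupled carrier Slc38a2, which is known to respond to amino acid shortage, fell by 0.64 and Slc6a6 by 0.56 on the log2 scale in wild type. Slc38a9, the lysosomal arginine sensor of mTORC1, gave no call (-0.21 on the log2 scale, SE 0.09), and neither did the creatine carrier Slc6a8 in wild type (-0.15 on the log2 scale, SE 0.09). The aromatic amino acid carrier Slc16a10, grouped by its family number with the monocarboxylate carriers, had the largest fall of any member, from 136 and 114 CPM to 36.01 and 36.4 CPM in wild type (log2 difference -1.75, SE 0.10, adjusted p = 3.5e-10). Its labelled knockout values were 129.5 and 133 CPM and then 41.2 and 37.02 CPM. The lactate carrier Slc16a1 rose by 0.64 and its relative Slc16a7 fell by 0.41 on the log2 scale in wild type. Both calls are lost without the deeper never exposed library, and that on Slc16a1 also without the shallower first-exposed one (adjusted p up to 0.068 and 0.089).

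Genes outside the carriers that are known to answer amino acid shortage were examined beside them. Of 17 tested, 13 rose and none fell in wild type (median log2 difference 0.44, beside -0.01 over all genes), and 11 of 17 rose in the labelled knockout. Examples in wild type are the asparagine synthetase Asns (0.88), the serine synthesis enzyme Phgdh (0.82) and the regulator Atf4 (0.49). Lysosomal amino acid sensing genes went the other way, with 7 of 15 lower and none higher in wild type and 9 of 15 lower in the labelled knockout. Largest was the fall of Fnip2, a partner of folliculin, at -2.45, and the lysosomal gene regulator Tfeb was at -0.52. Among 10 genes of the NRF2 oxidative stress program 7 were lower, among them Hmox1 (-1.77) and Nfe2l2 itself (-1.61), and 2 were higher. Of 6 genes of the sodium pump and of carrier chaperones, Bsg was higher by 0.16 and Emb was lower by 0.74 on the log2 scale. These lists were drawn up with earlier results of these data known and describe direction only.

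Of 12 members of the sugar and sugar phosphate families 6 rose and 1 fell in wild type. By family number these include carriers of other substrates, such as the urate carrier Slc2a9, which rose. Slc37a2, which exchanges glucose 6-phosphate for phosphate in the endoplasmic reticulum of macrophages, stood at 307 and 314 CPM before and at 964 and 978 CPM after the first exposure (log2 difference 1.64, SE 0.07, adjusted p = 8.9e-12). The labelled knockout gave 263 and 264 CPM and then 838 and 834 CPM (log2 difference 1.66, SE 0.07, adjusted p = 9.9e-12). Its relatives Slc37a3 and Slc37a4, the latter part of the glucose 6-phosphatase system, rose by 1.23 and 1.16 on the log2 scale in wild type. Slc2a6, a hexose transporter found in lysosomes, rose from 32.2 and 42.6 CPM to 77.8 and 74.03 CPM (log2 difference 1.01, SE 0.13, adjusted p = 8.8e-06). Slc2a8, an intracellular glucose transporter, gave no call in wild type (-0.17 on the log2 scale, SE 0.11) and fell in the labelled knockout (log2 difference -0.50, SE 0.11, adjusted p = 0.002), though not past the threshold without the shallower first-exposed library (0.088). Slc45a4, of a family of proton-linked sugar carriers, fell from 61.1 and 66.6 CPM to 22.9 and 21.5 CPM in wild type and from 74.5 and 77.4 CPM to 21.1 and 25.1 CPM in the labelled knockout (log2 difference -1.48, SE 0.09, adjusted p = 5.4e-10 in wild type).

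Organic ion, nucleoside and vitamin carriers held further large changes. Slc22a5, which imports carnitine for fatty acid oxidation, stood at 19.6 and 21.97 CPM in never exposed and 122 and 122 CPM in first-exposed wild-type libraries (log2 difference 2.50, SE 0.12, adjusted p = 4.4e-11). The labelled knockout went from 18.8 and 17.6 CPM to 107 and 103 CPM. Its near copy Slc22a21 stood at 4.28 and 5.41 CPM and then 11.6 and 11.9 CPM in wild type, and reads of these paralogs may have been split between them. Slc29a2, an equilibrative nucleoside carrier, had 2.82 and 2.54 CPM before and 19.3 and 15.8 CPM after IL-4 (2.33 on the log2 scale, without a test). The lysosomal nucleoside carrier Slc29a3 fell (log2 difference -0.77, SE 0.10, adjusted p = 8.0e-06). Of 25 members that carry nucleosides, nucleotide sugars or acetyl-CoA, 10 rose and 4 fell in wild type, and 5 rose and 5 fell in the labelled knockout. Among 7 vitamin and haem carriers the reduced folate carrier Slc19a1 (0.92) and the riboflavin carrier Slc52a2 (0.70) rose in wild type. The lysosomal carrier Slc46a3 fell from 106 and 118 CPM to 53.04 and 45.1 CPM (log2 difference -1.18, SE 0.09, adjusted p = 9.1e-09), Slc48a1 fell by 0.26 on the log2 scale, and the folate carrier Slc46a1 gave no call (0.01 on the log2 scale, SE 0.14).

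Ion carriers showed both directions as well. Of 16 carriers of protons, chloride or bicarbonate 6 rose and 6 fell in wild type, and the scaffold Slc9a3r1 rose. Slc12a7, which exports potassium with chloride, rose from 128 and 138 CPM to 299.7 and 276 CPM (log2 difference 1.11, SE 0.06, adjusted p = 3.7e-10). The sodium bicarbonate carrier Slc4a7 rose by 0.83 on the log2 scale. Slc26a11, an anion carrier, fell from 61.6 and 65.3 CPM to 33.7 and 25.4 CPM (log2 difference -1.09, SE 0.11, adjusted p = 7.5e-07), and Slc12a2, a potassium-importing relative of Slc12a7, gave no call (-0.24 on the log2 scale, SE 0.16). Both sodium/calcium exchangers at higher level fell: Slc24a6 from 121 and 139 CPM to 43.6 and 44.6 CPM (log2 difference -1.53, SE 0.07, adjusted p = 4.5e-11) and Slc8a1, the plasma membrane exchanger, from 104 and 100.3 CPM to 53.3 and 54.7 CPM (log2 difference -0.90, SE 0.08, adjusted p = 1.8e-07). Among peptide carriers Slc15a3 rose from 100.3 and 109 CPM to 274 and 267 CPM (log2 difference 1.36, SE 0.06, adjusted p = 1.9e-11), and Slc15a4, known for its part in endosomal Toll-like receptor signalling, fell from 104 and 114 CPM to 60.4 and 53.8 CPM (log2 difference -0.92, SE 0.08, adjusted p = 5.2e-08). The phosphate importer Slc20a1 fell by 0.82 and the choline carrier Slc44a1 by 0.69 on the log2 scale. All 91 called members in wild type and all 87 in the labelled knockout had no overlap between the libraries of the groups compared. With 2 libraries per group a call nearly requires such a separation, so it adds nothing to the calls. Without group weights the wild-type calls on Slc20a1 (adjusted p = 0.055), Slc6a6 (0.059), Slc48a1 (0.096), Slc44a1 (0.13) and Slc7a8 (0.19) are lost.

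**Figure D1:**
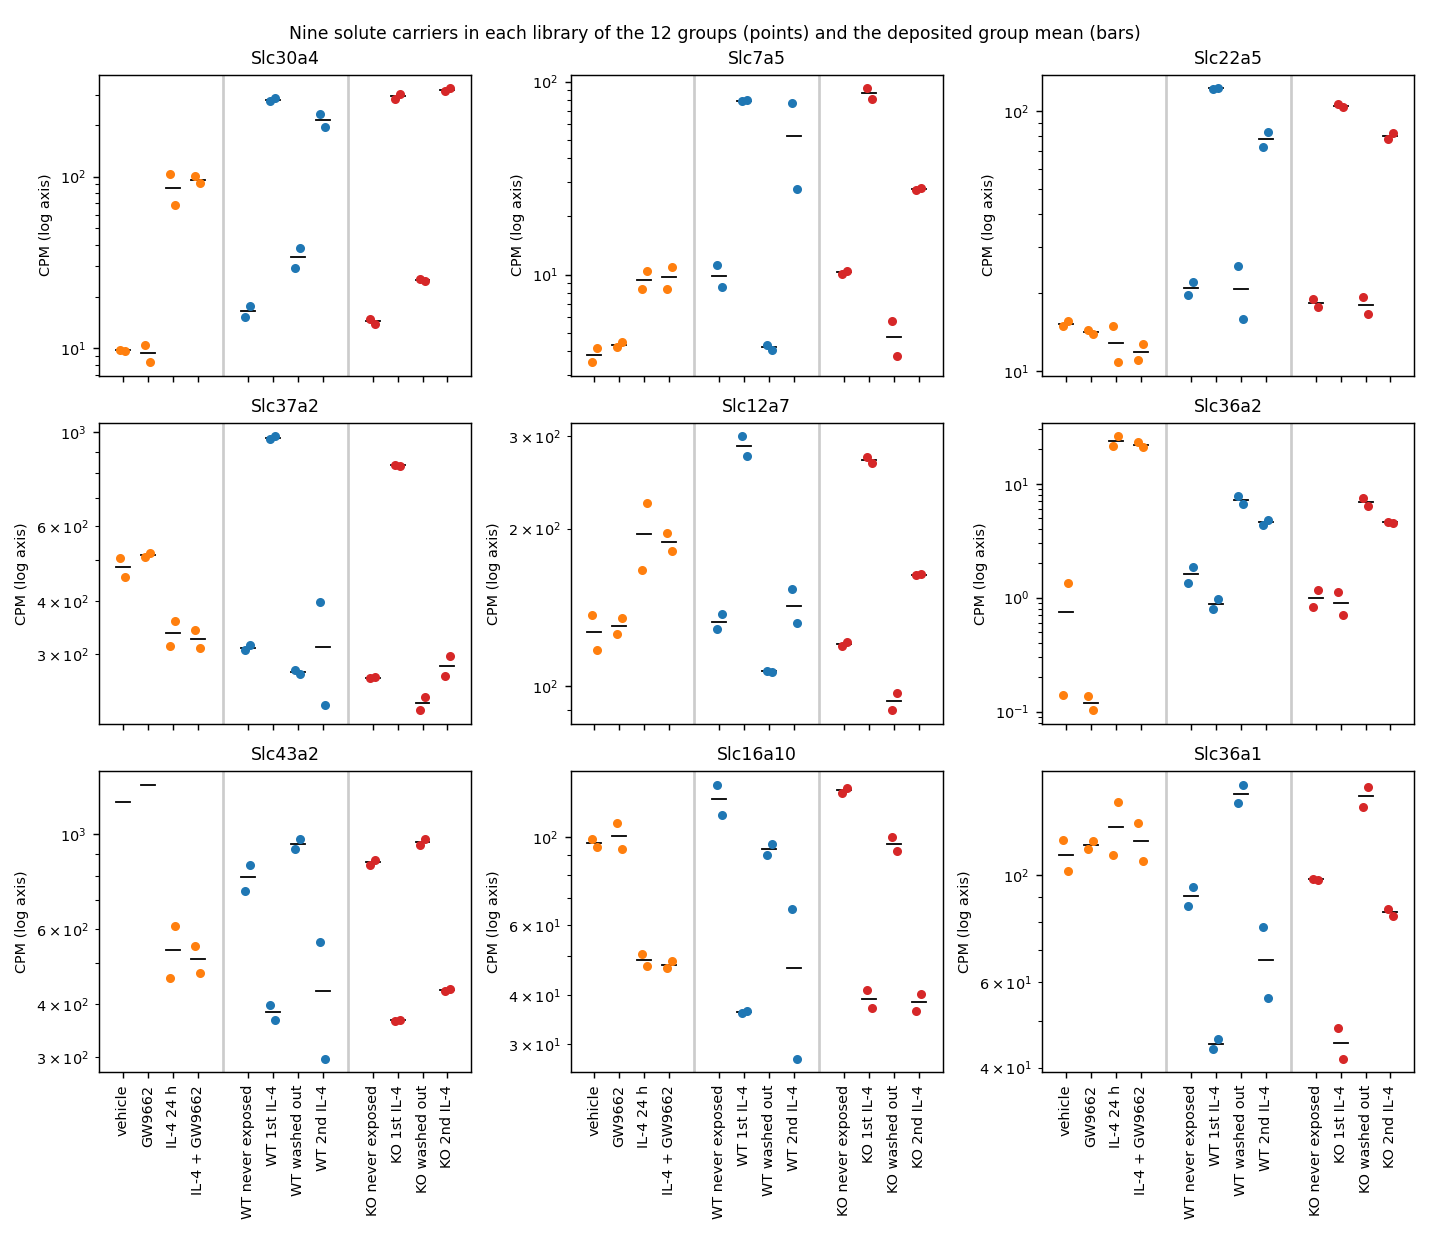
CPM (log axis) of 9 solute carriers by library (points), with the deposited group mean as a bar, for the 12 groups in the order vehicle, GW9662, IL-4 and IL-4 with GW9662 for 24 h, then the 4 wild-type and the 4 labelled knockout memory groups. Slc30a4 reaches 275 to 302 CPM at the first exposure, and Slc37a2 reaches 834 to 978 CPM at the first exposure and at most 397 CPM in the other memory groups. The libraries of Slc43a2 could not be separated in vehicle and GW9662, which show the mean alone.

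**Figure D2:**
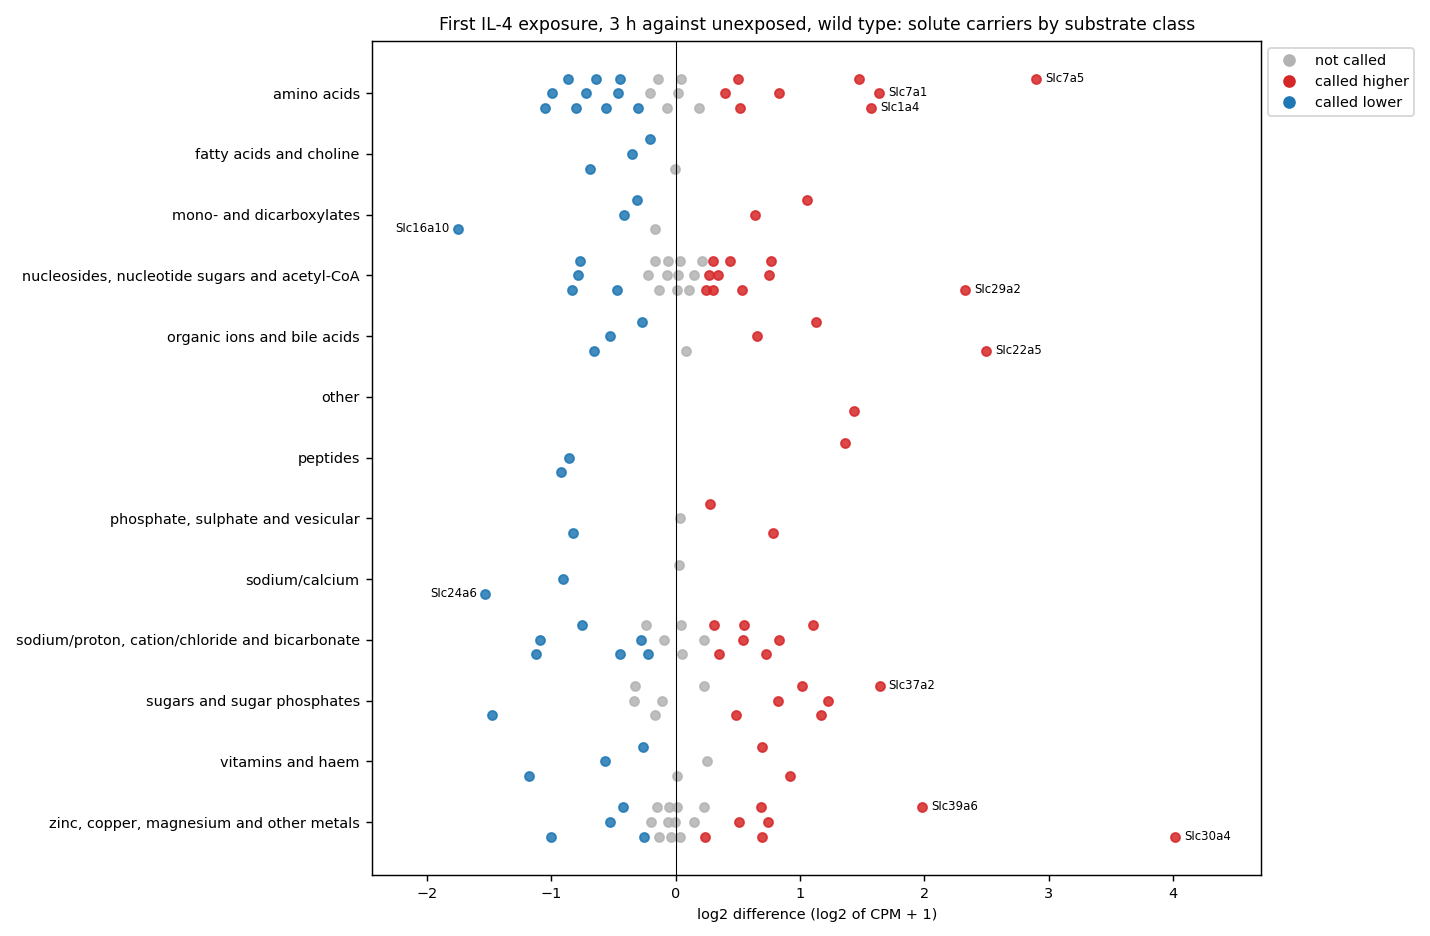
Log2 difference (x axis, log2 of CPM + 1) of each member between first-exposed and never exposed wild-type cells, by substrate class (rows), with members called higher in red, called lower in blue and others in grey. Slc30a4 lies farthest right at 4.02 and Slc16a10 farthest left at -1.75, and the amino acid row holds 8 red and 10 blue points.

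Responses of both genotypes to the first exposure can be compared without shared samples. Of the 49 members called higher in wild type 42 were also called higher in the labelled knockout, 85.7% of the wild-type and 95.5% of the 44 knockout calls. Of the falls 35 were shared, 83.3% of 42 and 81.4% of 43, and no member was called in opposite directions. The same overlap over all genes is not given, so these shares are no trait of the carriers. In the test of the difference between both responses no member was called by limma, beside 0.0261% of 11494 genes, and voom called none. At an unadjusted p under 0.05 there were 18 members and 1431 genes. The largest differences, knockout minus wild type on the log2 scale, were those of the proton exchanger Slc9a5 at 0.48 (SE 0.22), Slc36a4 at 0.40 and Slc36a2 at 0.40. At the other end lay Slc22a18 at -0.63 (SE 0.28), Slc22a21 at -0.61 and the dicarboxylate carrier Slc13a3 at -0.57.

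Promoters of 105 of the 139 members were listed in RefSeq's table (GRCm38.p6), each from 250 bases before to 50 bases after the start, and both strands were searched for a few short motifs. The palindrome that STAT6 prefers, TTC and GAA with 4 bases of any kind between, was found in 8 members (7.62%) and in 8.01% of 27025 genes. Among members that rose in wild type it was in 1 of 37, Slc37a4, and among those that fell in 2 of 29, Slc28a2 and Slc43a2. TTCNNNGAA, the form with 1 base less, was in 9 members (8.57%, 9.55% of genes), TGATGNAA, the composite element bound by ATF4, in 5 (4.76%, 4.51% of genes) and the metal response core TGCNCNC in 66 (62.9%, 53.6% of genes). The E-box CACGTG was in 19 members (18.1%, 8.09% of genes) and the PPAR direct repeat, AGGTCA and again AGGTCA with 1 base between, in none (0.0481% of genes). Shown are the windows of the member with the largest rise and of Slc37a2, whose rise was much smaller at the second exposure. Those of Slc37a4, the risen member with the STAT6 palindrome, and of Slc1a4, which holds TGATGNAA, follow. Matches to either spacing of TTC and GAA, to TGATGNAA or to CACGTG are in capitals. A match describes these letters only.
Slc30a4, chr2:122702614-122702913, minus strand, none of these 4 motifs: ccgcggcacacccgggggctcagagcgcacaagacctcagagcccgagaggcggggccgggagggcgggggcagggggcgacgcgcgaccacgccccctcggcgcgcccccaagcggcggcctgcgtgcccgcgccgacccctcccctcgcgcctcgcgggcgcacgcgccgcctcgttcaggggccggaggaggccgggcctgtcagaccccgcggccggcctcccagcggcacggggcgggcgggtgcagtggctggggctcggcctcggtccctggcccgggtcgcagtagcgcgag
Slc37a2, chr9:37255689-37255988, minus strand, none of these 4 motifs: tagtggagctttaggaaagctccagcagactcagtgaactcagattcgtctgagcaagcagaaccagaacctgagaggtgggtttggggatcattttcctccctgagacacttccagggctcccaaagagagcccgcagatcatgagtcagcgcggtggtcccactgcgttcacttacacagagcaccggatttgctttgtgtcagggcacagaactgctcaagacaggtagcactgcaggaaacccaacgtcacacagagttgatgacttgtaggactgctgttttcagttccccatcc
Slc37a4, chr9:44396696-44396995, plus strand, TTC and GAA 4 bases apart at bases 27 and 162: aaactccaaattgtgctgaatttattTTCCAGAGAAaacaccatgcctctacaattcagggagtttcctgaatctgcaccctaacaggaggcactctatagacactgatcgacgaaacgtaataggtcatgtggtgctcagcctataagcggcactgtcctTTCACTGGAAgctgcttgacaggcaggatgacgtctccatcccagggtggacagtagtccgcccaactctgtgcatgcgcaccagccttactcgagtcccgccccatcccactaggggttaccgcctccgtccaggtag
Slc1a4, chr11:20332664-20332963, minus strand, TGATGNAA on the other strand at base 247: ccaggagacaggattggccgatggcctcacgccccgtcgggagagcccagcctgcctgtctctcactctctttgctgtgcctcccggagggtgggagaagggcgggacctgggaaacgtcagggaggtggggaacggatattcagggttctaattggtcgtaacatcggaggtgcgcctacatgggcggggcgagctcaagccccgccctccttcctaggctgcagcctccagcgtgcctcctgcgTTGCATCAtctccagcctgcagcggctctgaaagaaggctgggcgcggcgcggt

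The antagonist experiment asked what IL-4 does over 24 h and whether GW9662 alters it. After 24 h the zinc exporter Slc30a4, arginine importer Slc7a1, lactate importer Slc16a1 and fatty acid carrier Slc27a1 were higher, and the exchangers Slc7a7, Slc9a9 and Slc8a1 and the lysosomal Slc46a3 were lower. Of 138 members 21 rose and 22 fell (31.2%), beside 18.2% of 11140 genes (9.8% higher, 8.38% lower) and 18.8% of those that reach 5 CPM. The members' median log2 difference was -0.02, as was that of all genes. Libraries of the IL-4 group differ more from each other than those of the other 3, and the count was 26 members without its deeper and 19 without its shallower library.

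Slc30a4 stood at 9.83 and 9.66 CPM with vehicle and at 103 and 68.001 CPM with IL-4 (log2 difference 2.98, SE 0.28, adjusted p = 0.00059). Slc16a1 stood at 6.42 and 5.48 CPM and then 43.3 and 22.9 CPM (log2 difference 2.23, SE 0.26, adjusted p = 0.0012), and Slc7a1 at 6.10 and 6.01 CPM and then 22.5 and 21.9 CPM (log2 difference 1.72, SE 0.18, adjusted p = 0.0008). These 3 lie higher in both IL-4 libraries. Slc1a5 rose from 33.7 and 28.2 CPM to 93.001 and 104 CPM (log2 difference 1.64, SE 0.21, adjusted p = 0.0017), Slc6a8 from 72.7 and 64.4 CPM to 125 and 144 CPM (log2 difference 0.96, SE 0.18, adjusted p = 0.0089) and the fatty acid carrier Slc27a1 from 123 and 114 CPM to 188 and 252 CPM (log2 difference 0.87, SE 0.17, adjusted p = 0.01). The potassium chloride carrier Slc12a4 rose from 65.2 and 59.3 CPM to 159.9 and 205 CPM (log2 difference 1.53, SE 0.16, adjusted p = 0.00073). Slc15a3 rose from 348 and 301 CPM to 679 and 857 CPM, Slc2a6 from 98.5 and 86.7 CPM to 151 and 234 CPM and Slc48a1 from 707 and 675 CPM to a mean of 1075 CPM. Without the shallower IL-4 library the calls on Slc15a3, Slc2a6, Slc27a1 and Slc6a8 are lost (adjusted p = 0.086, 0.12, 0.13 and 0.11), and that on Slc48a1 is lost in each of 4 omissions (up to 0.081).

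Several members that were nearly silent with vehicle were present with IL-4 at 24 h, and the rule chose them through the IL-4 groups. Slc36a2, a proton-coupled carrier of glycine and proline, had 0.140 and 1.35 CPM with vehicle and 21.2 and 26.01 CPM with IL-4. The fatty acid carrier Slc27a3 had 0.244 and 0.177 CPM and then 11.04 and 14.3 CPM, and the ion carrier Slc4a11 had 0.837 and 0.589 CPM and then 8.14 and 9.96 CPM. Slc9a3r2, the scaffold, had 0.453 and 0.765 CPM and then 7.77 and 8.63 CPM. In first-exposed libraries of either genotype, after 3 h, these 4 genes had at most 1.11 CPM. Slc7a5, high at that time, was at 3.52 and 4.18 CPM with vehicle and 8.37 and 10.4 CPM with IL-4 here, and Slc29a2 at 5.84 and 7.30 CPM with IL-4.

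Among the falls Slc7a7, which exports cationic amino acids in exchange for neutral ones, went from 66.96 and 60.3 CPM to 12.7 and 16.7 CPM (log2 difference -2.05, SE 0.21, adjusted p = 0.00075). Slc9a9 went from 333 and 304 CPM to 81.4 and 93.6 CPM (log2 difference -1.85, SE 0.20, adjusted p = 0.0009) and Slc8a1 from 75.4 and 69.2 CPM to 20.9 and 21.3 CPM (log2 difference -1.73, SE 0.17, adjusted p = 0.00059). The copper importer Slc31a1 fell from 163 and 141 CPM to 54.8 and 40.8 CPM (log2 difference -1.66, SE 0.18, adjusted p = 0.00089) and Slc46a3 from 178 and 182 CPM to 76.2 and 72.8 CPM (log2 difference -1.26, SE 0.13, adjusted p = 0.0007). Zinc importers Slc39a4 and Slc39a8 were below 5 CPM with IL-4. Slc39a4 was at 29.8 and 28.7 CPM and then 2.48 and 4.22 CPM and Slc39a8 at 9.17 and 7.95 CPM and then 1.66 and 1.33 CPM. Slc16a6, of the monocarboxylate family, fell from 26.1 and 22.4 CPM to 7.18 and 5.31 CPM, a call that is lost without the shallower IL-4 library (adjusted p = 0.089). Slc43a2 fell from a mean of 1193 CPM, whose libraries could not be separated, to 461 and 609.7 CPM, and that call is lost without either IL-4 library (up to 0.13). Smaller falls were called for Slc16a7 (-1.08), Slc15a4 (-0.99), Slc16a10 (-0.96), Slc46a1 (-0.94) and Slc20a1 (-0.78), all as log2 differences, and each of these 5 is lost without the deeper IL-4 library (up to 0.25 over all omissions). No call was made for Slc37a2 (-0.52 on the log2 scale, SE 0.16), Slc22a5 (-0.24 on the log2 scale, SE 0.22), Slc36a1 (0.18 on the log2 scale, SE 0.22), Slc38a9 (0.44 on the log2 scale, SE 0.16), Slc3a2 (0.19 on the log2 scale, SE 0.16) or Slc7a8 (-0.56 on the log2 scale, SE 0.22).

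The times come from different experiments with other controls, so their values are set side by side only. Overlaps of calls are given for members alone, without those over all genes. Of the 49 members called higher in wild type after 3 h 11 were called higher after 24 h (22.4% of the former and 52.4% of the latter), and of the 42 called lower 17 were called lower (40.5% and 77.3%). Calls went in opposite directions for 6 members. Of these the urea carrier Slc14a1 and Slc36a2 lie below 5 CPM in a group of each comparison, and for 3 of the other 4 a call is lost in most omissions of a library. The urate carrier Slc2a9 was higher after 3 h and lower after 24 h, the latter call being lost in 3 of 4 omissions (adjusted p up to 0.16). Slc27a1, Slc48a1 and the magnesium carrier Slc41a2 were lower after 3 h and higher after 24 h, where Slc27a1 lost its call in 1 of 4 omissions (up to 0.13), Slc48a1 in 4 of 4 (0.081) and Slc41a2 in 2 of 4 (0.12). At 3 h the call on Slc41a2 was lost in 3 of 4 omissions (0.21). Slc2a9 stood at 32.7 and 36.5 CPM and then 49.4 and 47.9 CPM in the 3 h comparison and at 37.003 and 33.6 CPM and then 16.3 and 15.9 CPM in the 24 h comparison. Among genes of other lists at 24 h, 5 of 17 amino acid response genes rose, led by the serine synthesis enzyme Psat1 at 2.57, and none fell. Of 14 lysosomal sensing genes Tfeb (1.06) and Mitf (0.97) rose and Fnip2 (-0.77) and Rragc fell. Mt2 fell by 1.31, Srxn1 was the 1 of 10 NRF2 genes called (higher), and of 6 sodium pump and chaperone genes 2 rose and Emb fell by 1.80 on the log2 scale.

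**Figure D3:**
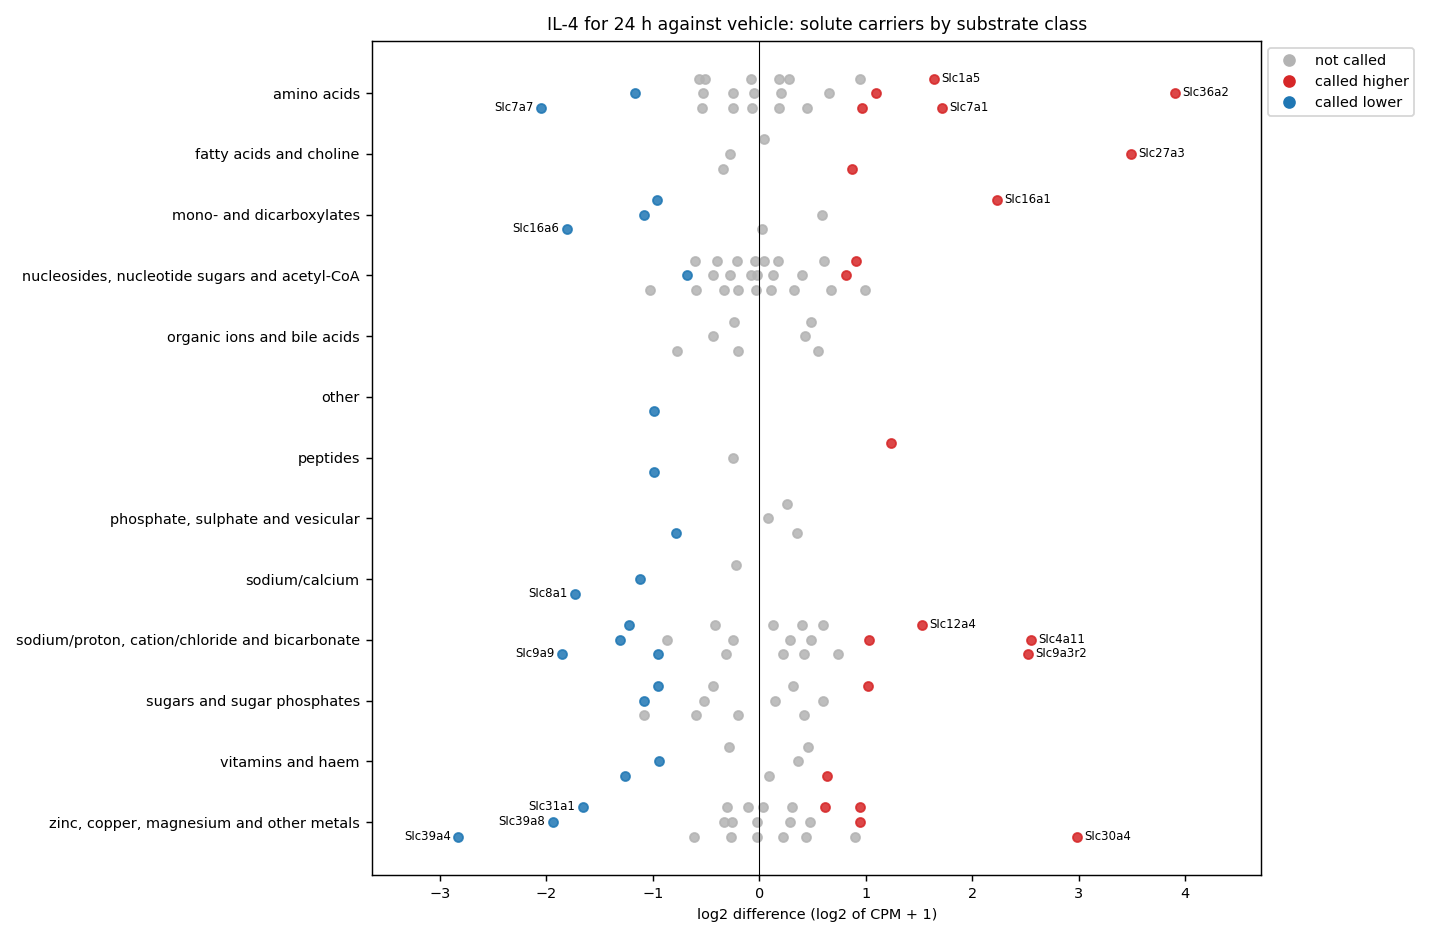
Log2 difference (x axis, log2 of CPM + 1) of each member between IL-4 and vehicle at 24 h, by substrate class (rows), with members called higher in red, called lower in blue and others in grey. Members below 5 CPM with vehicle, Slc36a2 at 3.90 and Slc27a3 at 3.49, lie farthest right, and Slc39a4 at -2.83 and Slc7a7 at -2.05 farthest left.

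GW9662 left the carriers without a call, alone or with IL-4. Against vehicle limma called 0 of 134 members and 0% of 10938 genes. At an unadjusted p under 0.05 there were 257 genes and 0 members, and voom called 0 members. Log2 differences of members ran from -1.03 for Slc7a11 (SE 0.62) to 0.26 for Slc24a3. Next came Slc16a1 (0.20) and Slc15a2 (0.20) on the high side and the nucleoside carrier Slc28a2 (-0.37) and Slc35e3 (-0.36) on the low side. Slc7a11, the cystine importer, stood at 1.64 and 8.36 CPM with vehicle and 1.09 and 1.85 CPM with GW9662, and its level differs between the library kinds: the shallower vehicle library is of the high kind and the other 3 are of the low kind.

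With IL-4 present, GW9662 moved no member past the threshold either (0 of 136). At an unadjusted p under 0.05 there were 0 members and 1 of 10867 genes, and voom called 0 members and 0 genes. The fit gave the IL-4 group the lowest weight of the 4 antagonist groups (0.211). A missing call in this test therefore does not show that levels are equal. Differences ran from -0.25 for Slc19a1, -0.24 for Slc2a6 and -0.21 for Slc35b2 to 0.48 for Slc39a8, 0.36 for Slc30a9 and 0.28 for Slc22a21. The change in the IL-4 response was called for 0 of 138 members, with 0 members and 13 of 11232 genes at an unadjusted p under 0.05. Again voom called 0 members and 0 genes. The same limit holds for this test. Its largest values were those of Slc7a11 (1.27 on the log2 scale, SE 1.46), Slc39a8 (0.64 on the log2 scale, SE 0.29), Slc35e3 (0.56 on the log2 scale, SE 0.54), the nucleotide carrier Slc17a9 (-0.33 on the log2 scale, SE 0.34), Slc19a1 (-0.32 on the log2 scale, SE 0.23) and Slc24a3 (-0.32 on the log2 scale, SE 0.33). The strong responders, with the antagonist present, had levels like those without it. Slc30a4 stood at 100.4 and 91.4 CPM with IL-4 and GW9662, Slc36a2 at 23.1 and 21.1 CPM, Slc16a1 at 37.97 and 38.3 CPM and Slc7a7 at 15.9 and 13.7 CPM. With IL-4 and vehicle these were 103 and 68.001 CPM for Slc30a4, 21.2 and 26.01 CPM for Slc36a2, 43.3 and 22.9 CPM for Slc16a1 and 12.7 and 16.7 CPM for Slc7a7. The values of both groups overlap for each. None of the 5 lists of other genes held a call for GW9662, alone or with IL-4.

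The washout asked how cells stood 24 h after IL-4 had been removed. Effects of earlier IL-4 and of any longer culture cannot be told apart in this comparison. Relative to never exposed cells, Slc30a4, the hexose carrier Slc2a6 and the lysosomal Slc15a3 were higher, and several carriers that a first exposure lowers, among them Slc36a1, Slc45a4, Slc46a3, Slc26a11 and Slc29a3, were also higher. The amino acid carriers Slc7a1 and Slc7a6 were lower. In wild type 17 of 138 members were higher and 14 lower (22.5%), beside 14.3% of 11369 genes (7.35% higher, 6.99% lower) and 15.1% of those that reach 5 CPM. Of 137 tested in the labelled knockout, 20 were higher and 22 lower (30.7%), beside 20.1% of 11230 genes (9.6% higher, 10.5% lower) and 20.8%. The wild-type count was 20 without the deeper never exposed library and 18 without the shallower washed-out one, and the knockout count was 22 without the shallower washed-out one.

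Slc30a4 stood at 29.5 and 38.6 CPM in washed-out wild-type and 25.5 and 24.8 CPM in washed-out knockout-labelled libraries, all 4 above the 4 never exposed ones (wild type log2 difference 0.997, SE 0.11, adjusted p = 1.5e-05; labelled knockout log2 difference 0.77, SE 0.09, adjusted p = 1.7e-05). Slc2a6 stood at 76.1 and 73.97 CPM in wild type and 85.3 and 97.5 CPM in the labelled knockout (wild type log2 difference 0.998, SE 0.17, adjusted p = 0.00069; labelled knockout log2 difference 1.08, SE 0.14, adjusted p = 3.8e-05). Slc15a3 stood at 181 and 183 CPM in wild type and 214 and 230.2 CPM in the labelled knockout (wild type log2 difference 0.79, SE 0.08, adjusted p = 2.9e-06; labelled knockout log2 difference 0.75, SE 0.06, adjusted p = 4.7e-07). Those 3 carriers were raised in both genotypes. Slc36a2 had 7.83 and 6.69 CPM in wild type and 7.54 and 6.34 CPM in the labelled knockout, against 1.36 and 1.88 CPM in wild type and 0.821 and 1.17 CPM in the labelled knockout in never exposed libraries. The scaffold Slc9a3r2 was at 1.41 and 1.82 CPM in wild type and 1.44 and 2.25 CPM in the labelled knockout. The myo-inositol carrier Slc5a3 was higher in wild type (log2 difference 0.93, SE 0.26, adjusted p = 0.025), a call lost without either never exposed or without the shallower washed-out library (adjusted p up to 0.17).

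Of the carriers lowered by a first exposure, 5 that lay above their never exposed level after the washout are given here. Others stayed below it: Slc16a10, which had the largest fall at the first exposure, was called lower after the washout in both genotypes. So were Slc20a1 and Slc39a14, given below. Slc36a1 stood at 141 and 154 CPM in wild type and 138 and 152 CPM in the labelled knockout (wild type log2 difference 0.70, SE 0.10, adjusted p = 0.00013; labelled knockout log2 difference 0.56, SE 0.08, adjusted p = 0.0001), against 86.4 and 94.3 CPM in wild type and 98.2 and 97.7 CPM in the labelled knockout before. Slc45a4 stood at 108 and 111 CPM in wild type and 109.8 and 121 CPM in the labelled knockout (wild type log2 difference 0.77, SE 0.11, adjusted p = 0.00014; labelled knockout log2 difference 0.60, SE 0.09, adjusted p = 0.00016). The log2 differences of Slc46a3 were 0.72 and 0.43, of Slc26a11 0.76 and 0.69 and of Slc29a3 0.68 and 0.55, in wild type and labelled knockout. All of these were called, and leaving out the deeper washed-out library ended the call on Slc46a3 in the labelled knockout (adjusted p = 0.057). Without group weights the calls on Slc29a3 (adjusted p = 0.050 in wild type and 0.12 in the labelled knockout) and the labelled knockout call on Slc46a3 (0.10) are lost.

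Other members lay below their never exposed level after the washout. Slc7a1 stood at 16.1 and 14.6 CPM in wild type and 17.2 and 21.8 CPM in the labelled knockout (wild type log2 difference -1.12, SE 0.15, adjusted p = 9.3e-05; labelled knockout log2 difference -0.72, SE 0.12, adjusted p = 0.00055) and Slc7a6 at 12.2 and 13.5 CPM in wild type and 10.4 and 11.4 CPM in the labelled knockout (wild type log2 difference -0.63, SE 0.13, adjusted p = 0.0029; labelled knockout log2 difference -0.75, SE 0.10, adjusted p = 8.8e-05). Slc7a5 was at 4.32 and 4.08 CPM in wild type and 5.74 and 3.80 CPM in the labelled knockout. The potassium-dependent sodium/calcium exchanger Slc24a3 was at 2.61 and 3.29 CPM in wild type and 4.31 and 5.92 CPM in the labelled knockout, against 16.5 and 11.5 CPM in wild type and 16.98 and 18.3 CPM in the labelled knockout in never exposed libraries. The phosphate importer Slc20a1 fell (wild type log2 difference -0.80, SE 0.13, adjusted p = 0.0006; labelled knockout log2 difference -0.63, SE 0.11, adjusted p = 0.00059), as did the zinc and iron importer Slc39a14 (wild type log2 difference -0.65, SE 0.16, adjusted p = 0.01; labelled knockout log2 difference -0.66, SE 0.13, adjusted p = 0.0017), whose wild-type call is lost without the deeper library of either group (up to 0.090). Without group weights the calls on Slc7a1, Slc20a1 and Slc39a14 are lost in both genotypes (adjusted p between 0.074 and 0.31). In the labelled knockout Slc12a2 was lower (log2 difference -0.61, SE 0.16, adjusted p = 0.015), but not past the threshold without the shallower library of either group (up to 0.20), and Slc7a11 was at 1.83 and 0.932 CPM and then 3.83 and 4.23 CPM. Calls of both genotypes, which share no samples, overlapped in 14 higher members (82.4% of 17 and 70% of 20) and 10 lower ones (71.4% of 14 and 45.5% of 22), with none opposite. No such overlap is given for all genes. Beside the members, Mt2 was lower by 1.67 in wild type, and 3 of 18 amino acid response genes were lower and 4 higher. Of 15 lysosomal sensing genes 3 were higher, including Tfeb (0.54). Of 6 sodium pump and chaperone genes 2 were higher and 1 lower, and of 10 NRF2 genes 2 and 1. The same lists in the labelled knockout gave 4 higher and 1 lower of 17, 2 higher of 15, 3 and 1 of 6, and 2 and 1 of 10, with Mt2 lower again.

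A second exposure of 3 h was then given to washed-out cells. Most carriers that rose at the first exposure rose again in the labelled knockout, among them Slc30a4, Slc22a5, Slc39a6, Slc7a1 and Slc7a6, while Slc37a2 rose much less than before. In the labelled knockout, 38 of 137 members were higher and 35 lower than in washed-out cells (53.3%), beside 35.8% of 11282 genes (19.3% higher, 16.5% lower) and 37.5% of those that reach 5 CPM. Of the 44 members raised by a first exposure 33 were raised again (75% of these and 86.8% of 38), and of the 43 lowered 30 were lowered again (69.8% and 85.7%), with none opposite. In wild type 9 of 138 were higher and 11 lower (14.5%), beside 4.86% of 11958 genes (2.63% higher, 2.23% lower) and 5.47%. All 9 and all 11 had been called in the same direction at the first exposure. The overlaps of both genotypes are given for members only, without those over all genes. Both libraries of the wild-type second exposure differ from each other by over 2-fold for 21 of 139 members (15.1%, beside 14.3% of genes that reach 5 CPM), and they differ in fibroblast markers as given above, whose part in the results was not tested. Without the deeper or the shallower of these libraries the wild-type count was 7 or 6.

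Slc30a4 stood at 231 and 194 CPM in wild type and 313 and 327 CPM in the labelled knockout after the second exposure (wild type log2 difference 2.61, SE 0.29, adjusted p = 9.6e-05; labelled knockout log2 difference 3.62, SE 0.09, adjusted p = 9.4e-14), and its wild-type call held without either library, the 1 call to do so among the 6 strongest rises and 6 strongest falls. Slc22a5 stood at 72.5 and 82.9 CPM in wild type and 77.7 and 82.6 CPM in the labelled knockout (wild type log2 difference 1.90, SE 0.39, adjusted p = 0.012; labelled knockout log2 difference 2.11, SE 0.13, adjusted p = 1.4e-09). Slc39a6 stood at 173 and 147 CPM in wild type and 222 and 218 CPM in the labelled knockout (wild type log2 difference 1.52, SE 0.24, adjusted p = 0.0021; labelled knockout log2 difference 1.82, SE 0.08, adjusted p = 2.5e-11). These carriers lay far above the washed-out level in all 4 libraries. Slc7a1 stood at 81.1 and 28.5 CPM in wild type and 47.02 and 50.01 CPM in the labelled knockout (labelled knockout log2 difference 1.28, SE 0.13, adjusted p = 6.7e-07). Slc7a6 stood at 43.8 and 31.5 CPM in wild type and 37.7 and 40.03 CPM in the labelled knockout (labelled knockout log2 difference 1.74, SE 0.11, adjusted p = 2.2e-09). Slc7a5 stood at 27.3 and 28.1 CPM in the labelled knockout and 77.05 and 27.6 CPM in wild type, from at most 5.74 CPM in every washed-out library. Slc29a2 was at 7.33 and 5.19 CPM in the labelled knockout. Falls were repeated in both genotypes for Slc45a4 (-1.54 in wild type and -1.40 in the labelled knockout), Slc46a3 (-1.54 and -1.21), Slc24a6 (-1.21 and -1.37) and Slc43a2 (-1.22 and -1.15), all called, with the wild-type calls lost without 1 or the other second-exposed library (adjusted p up to 0.32). Slc16a10 fell in the labelled knockout (log2 difference -1.31, SE 0.10, adjusted p = 4.6e-08), as did Slc15a4 (log2 difference -1.05, SE 0.08, adjusted p = 3.9e-08), and Slc44a1 fell in wild type (log2 difference -1.29, SE 0.33, adjusted p = 0.034; 0.80 without the shallower second-exposed library). Among the lists, 5 of 18 amino acid response genes rose and 1 fell in the labelled knockout, 5 of 10 NRF2 genes, 6 of 15 lysosomal sensing genes and 3 of 6 sodium pump and chaperone genes fell, and no metallothionein was called. In wild type Asns and Shmt2 rose and Nfe2l2 and Fnip2 fell.

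Slc37a2 rose strongly at the first exposure and little at the second. It stood at 275 and 269 CPM in washed-out wild-type libraries and at 397 and 227 CPM after the second exposure, against 964 and 978 CPM after the first. The labelled knockout gave 221 and 238 CPM washed out, 265 and 296 CPM after the second and 838 and 834 CPM after the first exposure. All 4 second-exposed libraries lie below all 4 first-exposed ones, and the rise from the washed-out level was 0.29 on the log2 scale in the labelled knockout (SE 0.07, adjusted p = 0.0044), a call lost without the deeper washed-out or the shallower second-exposed library (up to 0.066). In wild type it gave no call (0.14 on the log2 scale, SE 0.22). The second exposure was lower than the first by 1.69 on the log2 scale in wild type (SE 0.22, adjusted p = 0.0014) and by 1.57 in the labelled knockout (SE 0.07, adjusted p = 3.6e-10). The response itself, second minus first, differed by -1.50 (SE 0.23, adjusted p = 0.049) in wild type and by -1.37 (SE 0.10, adjusted p = 3.4e-06) in the labelled knockout. Of 138 members this was the 1 called in wild type, beside 0.0248% of 12074 genes, all of them lower. Labelled knockout cells had 2 of 137 called, both lower, beside 1.46% of 11435 genes (0.49% lower) and 1.56% of those that reach 5 CPM. The corresponding wild-type share of genes that reach 5 CPM was 0.0283%. The second of these members was Slc30a4, whose later rise was smaller by 0.64 on the log2 scale (SE 0.13, adjusted p = 0.022) while both second-exposed libraries lie above both first-exposed ones in level. Slc37a2 lost its wild-type call in 6 of 8 omissions of a library (adjusted p up to 0.15), and no omission ended it in the labelled knockout, where a fit without group weights did (0.14). The knockout call on Slc30a4 was lost in 7 of 8 omissions (up to 0.092).

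Levels at the second exposure were also set against those at the first, where time in culture may differ as well. In the labelled knockout 27 of 136 members were higher and 23 lower (36.8%), beside 22.9% of 11190 genes (12.8% higher, 10.1% lower) and 23.8% of those that reach 5 CPM, and the count was 31 or 30 without the deeper or shallower first-exposed library. Slc36a1 stood at 48.2 and 41.8 CPM after the first and 84.96 and 82.3 CPM after the second exposure (log2 difference 0.88, SE 0.08, adjusted p = 1.2e-06), Slc45a4 at 21.1 and 25.1 CPM and then 41.4 and 44.8 CPM (log2 difference 0.88, SE 0.09, adjusted p = 4.0e-06). Slc26a11 (0.86), Slc7a7 (0.70), Slc29a3 (0.62), Slc38a9 (0.45) and Slc6a8 (0.46) were higher too, as log2 differences, the call on Slc38a9 being lost without the shallower first-exposed library (adjusted p = 0.061). Slc36a2, at 4.66 and 4.52 CPM, and Slc6a12, a betaine carrier, at 4.31 and 4.26 CPM, lay below 5 CPM in both groups. Other members stayed under their first-exposure level: Slc7a5 at 92.3 and 81.2 CPM and then 27.3 and 28.1 CPM (log2 difference -1.61, SE 0.16, adjusted p = 2.0e-06), Slc7a1 at 98.2 and 101 CPM and then 47.02 and 50.01 CPM (log2 difference -1.02, SE 0.13, adjusted p = 2.3e-05) and Slc29a2 at 17.2 and 17.4 CPM and then 7.33 and 5.19 CPM (log2 difference -1.35, SE 0.18, adjusted p = 5.7e-05). Slc24a3 was at 16.2 and 15.1 CPM and then 5.82 and 5.59 CPM (log2 difference -1.31, SE 0.17, adjusted p = 4.0e-05). Slc7a5 and Slc7a1 start the second exposure from the lower washed-out level described above. Slc12a7 stood at 273 and 266 CPM and then 163 and 164 CPM (log2 difference -0.72, SE 0.07, adjusted p = 1.1e-06). In wild type 2 of 137 members were called, both lower, Slc37a2 and Slc12a7, beside 0.311% of 11880 genes (0.126% lower) and 0.35% of those that reach 5 CPM. Slc12a7 was at 299.7 and 276 CPM and then 153 and 132 CPM there (log2 difference -1.01, SE 0.20, adjusted p = 0.045), a call lost without the deeper first-exposed or either second-exposed library (adjusted p up to 0.16). Among the lists, 7 of 15 lysosomal sensing genes were higher at the second exposure in the labelled knockout, with Tfeb at 0.82, and 4 of 18 amino acid response genes were higher and 6 lower. Of 10 NRF2 genes 3 were higher and 1 lower, of 6 sodium pump and chaperone genes 2 and 1, and Mt2 was lower by 1.57. No list held a call for this comparison in wild type. Without group weights the labelled knockout calls on Slc7a1 (adjusted p = 0.095), Slc29a3 (0.066) and Slc6a8 (0.37) are lost.

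**Figure D4:**
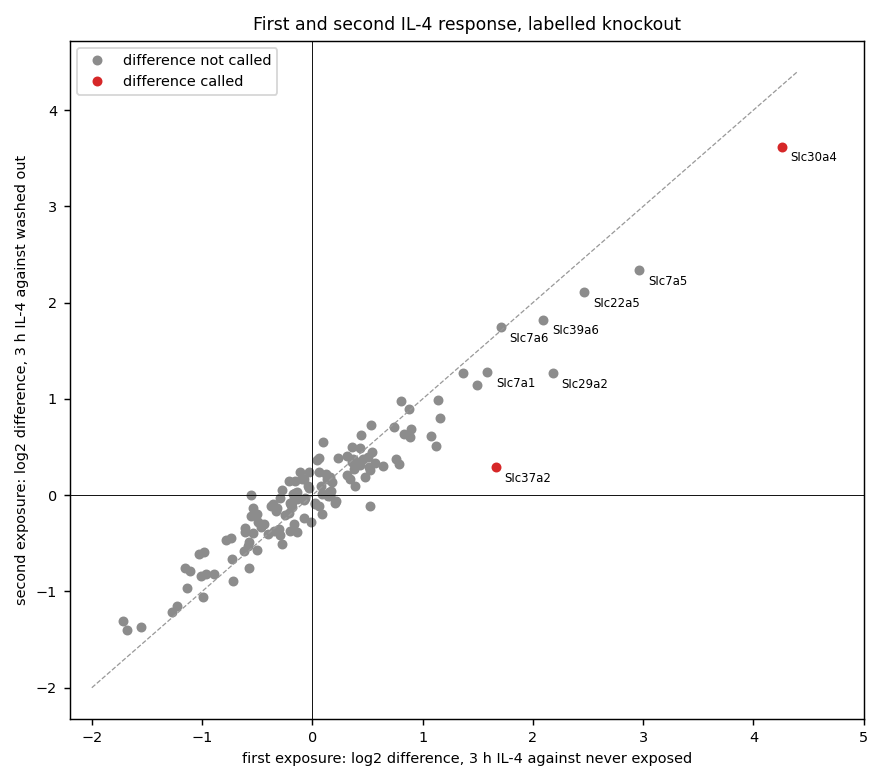
Log2 difference of each member at the first exposure (x) and the second exposure (y) in the labelled knockout, with the dashed line of equal response and members whose difference was called in red. Slc37a2 at 1.66 and 0.29 lies far below the line, and Slc30a4 at 4.26 and 3.62 lies below it with a large rise at both.

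Wild-type and knockout-labelled cells were last compared in each state. Genotype and library kind run together in these libraries, apart from 1 wild-type washed-out library of the low kind, so they cannot be told apart in never exposed, first-exposed and second-exposed cells. In never exposed cells 13 of 136 members were higher in the labelled knockout and 7 lower (14.7%), beside 18.4% of 11280 genes (7.74% higher, 10.7% lower) and 18.8%, a share below that of all genes. With library kind as a term in the fit the count was 0, and leaving out single libraries gave 8 to 13. That term rests on 1 pair of libraries, the washed-out wild type, which alone mixes kinds in the memory experiment. Calls lost or kept with the term therefore do not tell genotype and library kind apart. After the first exposure 2 of 135 were higher and 6 lower (5.93%), beside 9.15% of 11245 genes (1.55% higher, 7.6% lower) and 9.02%, and with library kind as a term 0. After the washout 2 of 137 were higher and 3 lower (3.65%), beside 3.17% of 11347 genes (1.3% higher, 1.87% lower) and 3.45%, shares near each other. At the second exposure 0 of 137 members were called by limma, beside 0.0168% of 11894 genes, with 8 members and 1046 genes at an unadjusted p under 0.05 and 1 member called by voom.

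The cystine importer Slc7a11 had the largest difference, and it is also the 1 member of 139 that differed by over 1.5-fold between kinds in all 4 groups that mix them. It stood at 29.004 and 29.5 CPM in never exposed wild-type and 1.83 and 0.932 CPM in never exposed knockout-labelled libraries (log2 difference -3.69, and -1.59 with library kind as a term). In washed-out wild-type cells the library of the high kind had 27.2 CPM and that of the low kind 5.56 CPM, while washed-out knockout-labelled libraries, all low, had 3.83 and 4.23 CPM. With IL-4 for 24 h it stood at 17.2 and 4.04 CPM, of the high and then the low kind, and with IL-4 and GW9662 at 5.37 and 19.2 CPM, of the low and then the high kind. Within every mixed group the library of the high kind lies above the other.

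**Figure D5:**
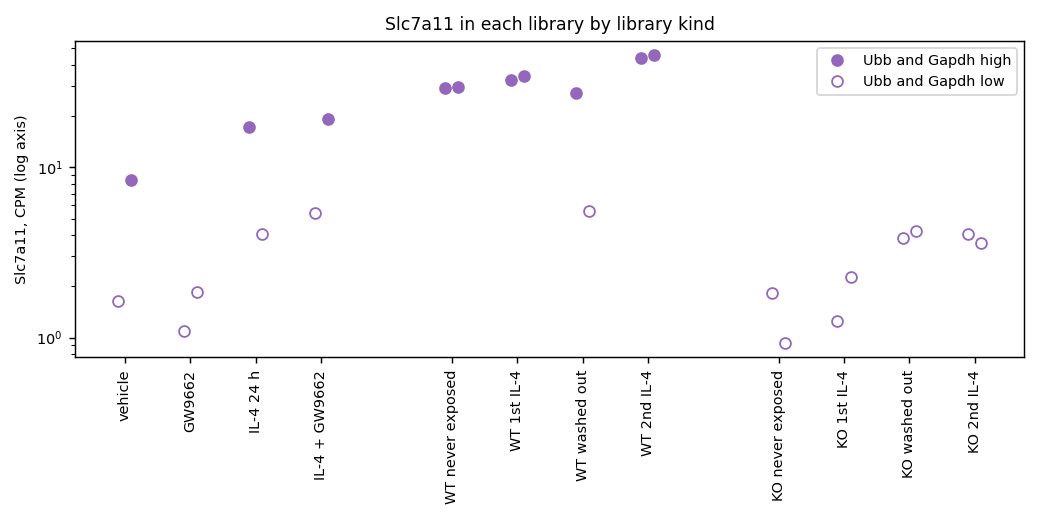
CPM (log axis) of Slc7a11 by library in the 12 groups, with filled points for libraries in which Ubb and Gapdh are high and open points for those in which they are low. All open points lie at or under 5.56 CPM, and all filled points at or above 8.36 CPM.

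The other differences between genotypes were small. In never exposed cells the labelled knockout was higher for the dicarboxylate carrier Slc13a3 (10.1 and 11.7 against 16.6 and 18.3 CPM, 0.63 on the log2 scale), Slc52a2 (0.41), Slc31a2 (0.40), Slc10a3 of the bile acid carrier family (0.36), Slc6a8 (0.33) and Slc15a3 (0.33). It was lower for Slc35e3 (-0.64), Slc35a3, which carries UDP-N-acetylglucosamine (-0.36), Slc39a1 (-0.32) and Slc4a7 (-0.30). The oligopeptide carrier Slc15a2 was at 4.80 and 4.09 CPM in wild type and 2.01 and 1.40 CPM in the labelled knockout. After the first exposure Slc48a1 (0.27) and Slc31a2 (0.22) were higher, and Slc39a1 (-0.53), Slc38a7 (-0.32) and Slc27a1 (-0.28) lower. The 6 counted as lower also hold Slc22a21, Slc7a11 and Slc15a2. Of these, Slc7a11 and Slc15a2 lie below 5 CPM in the labelled knockout there, so their calls are not read as results. All members named for never exposed and first-exposed cells are called without a term for library kind and none with it. As given above, that term rests on 1 pair of libraries. After the washout Slc27a1 (log2 difference 0.37, SE 0.08, adjusted p = 0.03) and Slc3a2 (log2 difference 0.37, SE 0.08, adjusted p = 0.026) were higher and Slc4a7 (log2 difference -0.55, SE 0.13, adjusted p = 0.039) and Slc8a1 (log2 difference -0.51, SE 0.11, adjusted p = 0.026) lower, with Slc15a2 at 5.72 and 6.58 CPM in wild type and 2.27 and 1.83 CPM in the labelled knockout. Of these, Slc27a1, Slc4a7 and Slc8a1 kept their call with library kind as a term (adjusted p = 0.048, 0.039 and 0.026), and the count of 5 was 1 without the shallower wild-type library and 0 without the shallower knockout one. At the second exposure the highest differences were those of the sulphate carrier Slc26a2 (1.31 on the log2 scale, SE 0.53), Slc2a9 (0.74 on the log2 scale, SE 0.32) and Slc13a3 (0.64 on the log2 scale, SE 0.60), and the lowest those of Slc7a11 (-3.24 on the log2 scale, SE 1.06), Slc1a4 (-0.89 on the log2 scale, SE 0.73) and Slc15a2 (-1.32 on the log2 scale, SE 0.77). Among lists in never exposed cells, 2 of 17 amino acid response genes, 2 of 10 NRF2 genes, Mt1, Bsg and 3 of 15 lysosomal sensing genes were higher in the labelled knockout and Fnip1 lower.

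Some members share exonic sequence with other annotated genes, and the kit does not mark strand. In GENCODE vM21, 11 members overlap another gene over at least 10% of their exonic length, 3 of them on the same strand, among these Slc39a7 and Slc10a3. Levels of these 11, which include Slc15a4, Slc16a6 and Slc29a1, are therefore uncertain where the partner is expressed.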

How the data were processed

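RNA of 24 samples was read by poly-A selected sequencing with a kit that does not mark strand, and the submitters' processing notes name TopHat2 2.0.7, Cufflinks 2.0.2 and the mouse build mm10. The deposited values are a signal per gene, the authors' mean CPM over both samples of a group, in 1 table for each experiment. Whether these tools made the deposited values is not given in the sources used here. Each mean was separated into whole reads of a deeper and a shallower library, which gave a unique answer for 99.51% of values above 0 (848 of 171808 stayed unresolved). A gene with an unresolved value entered with its mean as 1 observation of weight 2 (Slc43a2 and Slc6a6 in vehicle and GW9662, Slc48a1 in IL-4). The separation and the fits were tested on simulated data. Differences were fitted by limma 3.58.1 in R 4.3.3 on log2(CPM + 1), with 1 coefficient and 1 variance weight per group, keeping genes whose group mean reaches 1 CPM in a group compared. This scale understates changes of low genes. P-values were adjusted by Benjamini and Hochberg over all genes tested, and a call is an adjusted p under 0.05.

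Other settings were no group weights, a pseudocount of 0.1 CPM, no filter, limma-voom on the recovered reads, TMM factors and each library left out. A term for the library kind and the test of second against first response were added after the data were seen. Members and lists were chosen with earlier results of these data known. In each comparison the text names up to 6 members called in each direction by size, or the 3 highest and 3 lowest where none is called, the 10 highest by level, those at the threshold, and a set of carriers fixed by role. Slc12a4, Slc14a1, Slc31a1, Slc35a1, Slc37a3, Slc37a4 and Slc41a2 were named after their values were seen. Libraries of a group differed by more than sampling noise, and each counts as a sample. Results of some genes are not reported here.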

Additional observations from a re-analysis of the deposited data

Results flagged for a closer look

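In 3 cases the response to a second exposure differed from that to a first by a test of the difference itself, which was added after the data were seen. For Slc37a2, the sugar phosphate exchanger, the second response minus the first was -1.50 on the log2 scale in wild type and -1.37 in the labelled knockout. For Slc30a4, the vesicular zinc exporter, this difference was -0.64 in the labelled knockout, where the gene started from a washed-out level above the never exposed one. The wild-type value for Slc37a2 rests on second-exposed libraries that stand apart, at 397 and 227 CPM with fibroblast markers of 1083 and 37.5 CPM, whose part in the result was not tested. Its limma call (adjusted p = 0.049) was lost in most omissions of a library, without the filter and with the smaller pseudocount. The call on Slc30a4 was also lost in most omissions, while that on Slc37a2 in the labelled knockout held in each. Neither labelled knockout call held without group weights.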

How the results depend on the processing

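Each group has 2 libraries, so every call rests on a spread borrowed across genes, and the labels do not say whether libraries are separate animals. No paired analysis was possible because the averaged columns carry no replicate numbers. Of 156 values of single members, the alternatives kept direction and side of the threshold in 1408 cases, lost the call in 198, gained it in 4 and turned the sign in 10.

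Without group weights the members called were 65 for IL-4 at 24 h, 56 for the first exposure in the labelled knockout, 13 and 15 for the washout in wild type and labelled knockout, 28 and 21 for second against first exposure, and 68 and 41 for second exposure against washed-out. For labelled knockout against wild type they were 1 in never exposed, 2 in first-exposed, 0 in washed-out and 15 in second-exposed cells, and for second minus first response 5 in wild type and 0 in the labelled knockout. With the library kind as a term they were 18 and 26 for the washout, 0 for never exposed and 0 for first-exposed genotypes, and 1 for the difference of responses in the labelled knockout. Without the filter they were 1 for second against first exposure and 12 for second exposure against washed-out in wild type, 1 for washed-out genotypes and 0 for the difference of responses in wild type, which was also 0 with a pseudocount of 0.1 CPM. Limma-voom called 5, 2 and 1 for first-exposed, washed-out and second-exposed genotypes.

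Leaving out 1 library at a time gave 77 to 85 (first exposure, wild type), 74 to 79 (labelled knockout), 19 to 34 (IL-4 at 24 h), 18 to 29 and 22 to 34 (washout), 1 to 2 and 30 to 39 (second against first), 6 to 26 and 56 to 62 (second against washed-out), wild type before labelled knockout. For genotypes it gave 8 to 13 in never exposed, 4 to 6 in first-exposed, 0 to 6 in washed-out and 0 in second-exposed cells, and for second minus first response 0 to 3 and 1 to 2. It gave 0 for GW9662 alone, with IL-4 and in the change of response, and 0 for the difference of first responses.

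Signs turned in 10 cases, given here as the range over single omissions. Slc15a2 ran from -0.25 to 0.65 with GW9662 (-0.25 and -0.20 without the deeper vehicle or GW9662 library). With GW9662 on IL-4, Slc22a21 ran from -0.088 (without the shallower library of both agents) to 0.64, and without the shallower or the deeper IL-4 library Slc30a9 was at -0.10 or 0.82, Slc2a6 at 0.076 or -0.55, Slc19a1 at 0.020 or -0.51 and Slc35b2 at 0.17 or -0.59. Slc1a4 between genotypes at the second exposure was at 0.54 or -2.31 without the deeper or shallower wild-type library. With the library kind as a term Slc35e3 (0.12) and Slc39a1 (0.16) turned in never exposed genotypes. The cause was not tested.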
